A study of Homo sapiens with 33 samples.

Results

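TUBA1B encodes an alpha-tubulin, one of the subunits from which microtubules are assembled, and its mRNA is abundant in dividing cells. Stretches of this mRNA were carried by 20 tiles, each with 22 barcodes, in a pool of 1599 tiles (35178 barcoded oligonucleotides) from 23 source RNAs. The tiles were found by their name, TUBA1B followed by a tile number. TUBA1B was selected on its values in the contrast described here, the anti-PUM2 immunoprecipitate against Input, in which its tiles had been read as depleted. The values below are therefore a description of these libraries, not a test of depletion.

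PUM2 is a Pumilio-family protein that binds single-stranded RNA through a repeat domain in which each repeat contacts 1 base, and it prefers a short motif beginning with UGUA. Bound mRNAs are commonly repressed through recruitment of deadenylases. In a pooled assay of this kind, a stretch that carries a usable site can be recovered above its Input level, and stretches without one form the background.

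The pool was transfected into HEK293T, a human embryonic kidney line, with no protein added. At 48 hours the cells were fixed with 0.1% formaldehyde for 10 minutes, and RNA was read from Input (3 libraries) and from a precipitate made with an antibody against PUM2 (3 libraries). Amplification used priming sites on the oligonucleotides, so the counts concern the transfected tiles and not the TUBA1B mRNA of the cells themselves. No precipitation with a control antibody is among the groups used here, and the labels do not say whether replicates were separate cultures. Tile sequences and their positions in the mRNA were not used here, so no motif was sought and no sequence is printed. A tile number is only a name in what follows.

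Input libraries held 29433144 to 35092298 reads and immunoprecipitate libraries 15986799 to 17727926. TUBA1B tiles took 2.03% to 2.19% of the Input reads and 1.66% to 1.75% of the immunoprecipitate reads. Counts were turned into CPM, a count scaled to library size, after TMM scaling, which sets most tiles of the pool near no difference. On that scale the 20 tiles together reached 18834, 19384 and 19796 CPM in Input A, B and C, and 18100, 18384 and 18663 CPM in immunoprecipitate A, B and C. Every immunoprecipitate sum lay below every Input sum, but the means differed by little: 18382 ± 281 against 19338 ± 483 CPM (SD, n = 3 each), a ratio of 0.951. The ratio was 0.963 with RLE factors and 0.807 when counts were scaled to library size alone, and the sums did not overlap under either.

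A minority of the TUBA1B tiles was called lower, which does not show that the uncalled tiles were unchanged. All 20 passed the filter on low counts. TUBA1B:6 and TUBA1B:7 passed it through their Input reads alone, so they could come out only lower or uncalled. The edgeR quasi-likelihood test with Benjamini-Hochberg adjustment over the 1563 tiles tested (adjusted p under 0.05) called 4 lower, TUBA1B:1, TUBA1B:6, TUBA1B:7 and TUBA1B:9, and 1 higher, TUBA1B:20. Over the whole pool 4.16% of tiles were called lower and 14.1% higher. Because TUBA1B was picked for these calls, nothing is read from its share. The tiles called lower fell into 2 kinds: TUBA1B:6 and TUBA1B:7 had no read at all in the immunoprecipitate, whereas TUBA1B:1 and TUBA1B:9 were at about 0.69 of their Input level.

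TUBA1B:6 and TUBA1B:7 were the scarcest TUBA1B tiles in Input. TUBA1B:6 had 437, 776 and 641 reads in Input A, B and C (13.8, 23.0 and 16.5 CPM) and 0 in each immunoprecipitate library. TUBA1B:7 had 196, 282 and 207 reads in Input (6.18, 8.34 and 5.33 CPM) and again 0 in each immunoprecipitate library. The groups did not overlap for either tile. At the Input share the 3 immunoprecipitate libraries would together have held 838 reads of TUBA1B:6 and 310 of TUBA1B:7. Taking 3 reads over the group as the floor that a count of 0 allows, TUBA1B:6 was lower by at least 8.13 and TUBA1B:7 by at least 6.69 on the log2 scale. These bounds cover counting error only, since reads amplified by PCR and carrying no molecular identifier are not independent molecules. In Input, TUBA1B:6 stood above 4.35% and TUBA1B:7 above 2.56% of tested tiles, and the next scarcest TUBA1B tile, TUBA1B:20, held 24097 Input reads against 1854 and 685.

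Few barcodes stood behind these absences. Of the 22 barcodes of TUBA1B:6, 13 had a read in any Input library, and 7, 9 and 8 had one in Input A, B and C. Of those of TUBA1B:7, 9 had a read in any Input library, and 3, 7 and 5 in Input A, B and C. One barcode held 30.9% of the Input reads of TUBA1B:6 and 28.6% of those of TUBA1B:7, and the top 3 held 68.1% and 69.8%. The best represented, barcode 21 of TUBA1B:6, had 179, 265 and 129 Input reads, and barcode 3 of TUBA1B:7 had 92, 72 and 32. Both tiles were thus absent from the precipitate over every barcode seen in Input, but those barcodes were a part of the design and were themselves unevenly sampled.

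The pool held 26 other tiles with 685 to 1854 Input reads, a range set by TUBA1B:7 and TUBA1B:6 themselves. Of these, 24 had reads in the immunoprecipitate and 2 had none, with a median of 1159 reads over the 3 libraries and a highest value of 44889. edgeR called 5 of them higher and 2 lower. Over all 1563 tested tiles, 8 had no immunoprecipitate read, and TUBA1B:6 and TUBA1B:7 were 2 of these. Before the filter on low counts, 28 of 1599 tiles had none, among them tiles without a read in any library. Among the 977 tiles with at least 24097 Input reads, the level of TUBA1B:20, none lacked an immunoprecipitate read. At the level of barcodes, 35.0% of all pool barcodes with fewer than 100 Input reads (at least 1) and 57.3% of those with 100 to fewer than 1000 had a read in any immunoprecipitate library. For TUBA1B these counts were 1 of 14 and 31 of 49, and they include the barcodes of TUBA1B:6 and TUBA1B:7. Whether the absence of TUBA1B:6 and TUBA1B:7 moves with their scarcity in Input was not tested.

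TUBA1B:1 and TUBA1B:9 were abundant, and their difference was small and in the same direction over most barcodes. TUBA1B:1 was at 1650, 1670 and 1880 CPM in Input A, B and C and at 1150, 1350 and 1110 CPM in the precipitate (log2 fold change -0.52 ± 0.12, SE, n = 3 against 3). Its groups did not overlap, and 21 of its 22 barcodes were lower in the precipitate by their scaled count. TUBA1B:9 was at 784, 822 and 698 CPM in Input and at 515, 576 and 497 CPM in the precipitate (-0.54 ± 0.15). Here too the groups did not overlap, and 20 of 22 barcodes were lower. The barcodes of a tile share its sequence and the same libraries, so these counts describe how evenly the difference was spread and are not replicates. Only 7 barcodes of TUBA1B:9 had a read in all 3 precipitates, against 16 of TUBA1B:1. No precipitate read was found for 2 barcodes of TUBA1B:9 and 1 of TUBA1B:1.

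TUBA1B:20 went the other way. It was at 223, 214 and 251 CPM in Input A, B and C and at 320, 445 and 448 CPM in the precipitate, 1.76-fold higher (log2 fold change 0.82 ± 0.22, SE, n = 3 against 3). All 3 precipitates lay above all 3 Inputs, with A the lowest of them. The increase was less even over barcodes than the decrease of TUBA1B:1: of 21 barcodes with at least 30 reads, 14 were higher and 7 lower, and only 3 had a read in all 3 precipitates. In precipitate A, 9 barcodes had a read and a single one held 34.3% of the tile's reads, against 24.3% in B and 14.7% in C. Without the top barcode of each tile the value was 0.81 and the call was lost, and by library size alone it was 0.58, also not called.

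The remaining 15 TUBA1B tiles were not called, and their log2 fold changes ran from -0.68 to 0.16 (SE 0.10 to 0.35), 9 below 0 and 6 above. Of these, 9 lay within 0.2 of 0. TUBA1B:8 was nearly level, at 1400, 1420 and 1450 CPM in Input and 1360, 1450 and 1490 CPM in the precipitate (0.01 ± 0.10). TUBA1B:15 was as flat, at 1350, 1300 and 1620 CPM in Input and 1290, 1300 and 1710 CPM in the precipitate (0.01 ± 0.15). The groups of both tiles overlapped. TUBA1B:17 was the most abundant, at 3250, 3400 and 2730 CPM in Input and 3730, 3710 and 3070 CPM in the precipitate (0.16 ± 0.12), with overlapping groups.

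Of the uncalled tiles, TUBA1B:18 and TUBA1B:12 had the lowest values, from precipitates that differed between themselves. TUBA1B:18 was at 546, 496 and 404 CPM in Input and at 216, 231 and 453 CPM in the precipitate (-0.68 ± 0.31). Precipitate C alone reached the Input range. TUBA1B:12 was at 331, 364 and 314 CPM in Input and at 287, 134 and 221 CPM in the precipitate (-0.65 ± 0.30), below Input in every precipitate but uneven between them. TUBA1B:11 had 238, 230 and 230 CPM in Input against 163, 119 and 296 CPM (-0.27 ± 0.35). TUBA1B:2 had the same value (-0.27 ± 0.17) at a higher level, with 801, 779 and 837 CPM in Input and 534, 794 and 677 CPM in the precipitate, where 16, 18 and 20 of its barcodes had a read. TUBA1B:11, TUBA1B:12 and TUBA1B:18, singled out after their values were seen, had Input levels of 233 to 482 CPM, lower than those of every other uncalled TUBA1B tile. The precipitates contained fewer of the barcodes: 6, 9 and 11 of 22 for TUBA1B:18 and 15, 9 and 16 for TUBA1B:12. TUBA1B:17, by comparison, kept 22, 21 and 21. Such losses were not confined to the uneven tiles. TUBA1B:14 kept 16, 14 and 14 and TUBA1B:19 kept 15, 13 and 14, yet both varied less between precipitates than TUBA1B:12.

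Barcodes of TUBA1B were repeatable in Input and erratic in the precipitate. Of 440 barcodes, 401, 407 and 404 had a read in Input A, B and C, and 298, 296 and 325 in precipitate A, B and C. Of the 414 with an Input read, 219 were found in all 3 precipitates, 107 in 2, 48 in 1 and 40 in none. Of these 40, 22 belonged to TUBA1B:6 and TUBA1B:7. The median coefficient of variation of a barcode's scaled count over 3 libraries was 20.1% in Input and 86.9% in the precipitate, against 27.0% and 99.0% over the whole pool. For TUBA1B the Input value was taken over 395 barcodes with a read in all 3 Inputs. The precipitate value was taken over the 374 of them with a read in any precipitate, so counts of 0 enter only that value. TUBA1B barcodes also had more Input reads, with a median of 3587 against 1386 over all barcodes of the pool. The variation was not compared at a matched number of Input reads. Summed over barcodes, the coefficient of variation over the 3 precipitates was smaller, with a median of 14.3% over the 18 tiles that had reads there. It ran from 4.62% in TUBA1B:8 to 47.6% in TUBA1B:11, with TUBA1B:18 at 44.3% and TUBA1B:12 at 35.9%. With at least 30 reads required, 258 TUBA1B barcodes were lower in the precipitate and 147 higher, or 63.7% lower, against 56.6% lower of all pool barcodes counted in that way.

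As a group, the TUBA1B tiles lay slightly under the middle of the pool. Their median log2 fold change was -0.19, against -0.06 over all tiles tested, and 65.0% of them were below 0, against 54.6% in the pool. Measured in each precipitate against the mean of Input, the median over TUBA1B tiles was -0.13, -0.34 and -0.09 in A, B and C, and that over all tiles was -0.07, -0.06 and -0.03. The distance between the medians, -0.13, was 0.00 without precipitate B and -0.02 without the top barcode of each tile. Its size thus moved with that library and with the top barcodes. These were the alternatives that left it smallest. In the others it ran from -0.16, without Input A, to -0.08, with the column letter fitted as a replicate block. In 5 TUBA1B tiles all precipitates lay below all Inputs and in 1 all lay above. Over the pool these shares were 20.6% and 19.7%.

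No TUBA1B tile had a large increase, an outcome that selection as depleted on these same values favours. The highest TUBA1B value was the 0.82 of TUBA1B:20. Of the 20 tiles, 18 (90.0%) lay within 1 of 0 on the log2 scale, against 77.9% of the pool. The pair without precipitate reads was the exception. TUBA1B tiles were also more abundant in Input, with a median of 810 CPM against 347 CPM over all tiles tested. The spread was not compared at a matched Input level. The 3 source RNAs nearest to TUBA1B in number of tiles are given beside it with no test of a difference. The other source RNAs of the pool were not set beside it. MRPS18B, which encodes a mitochondrial ribosomal protein, had 17 tiles with a median of -0.03 and a highest value of 2.10, and 2 were called higher and 1 lower. TCEAL9 had 13 tiles with a median of 0.19 and a highest value of 1.93, and 1 was called higher and 0 lower. CKS2, whose product binds cyclin-dependent kinases, had 7 tiles with a median of 0.09 and a highest value of 4.59, and 2 were called higher and 0 lower. Each of these 3 RNAs held a tile raised further than any of TUBA1B. Since TUBA1B was selected as depleted on these same values, nothing is read from that difference. Their lowest values were -1.38, -0.27 and -0.30, and 0 of their tiles lacked precipitate reads.

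The edgeR calls of the TUBA1B tiles needed all 3 Input libraries. Leaving out Input A, B or C ended the calls of TUBA1B:1, TUBA1B:6, TUBA1B:7, TUBA1B:9 and TUBA1B:20 alike, giving 0 lower and 0 higher each time, although their log2 fold changes moved by at most 0.33. The loss was not particular to TUBA1B: over the pool, tiles called lower fell from 65 to 12, 15 and 19. Those called higher went from 220 to 180, 179 and 182. Leaving out precipitate A, B or C moved the pool the other way, to 115, 113 and 146 tiles lower. Tiles called higher were then 250, 237 and 264. Without precipitate A, TUBA1B:6 and TUBA1B:7 were still called lower and TUBA1B:1 and TUBA1B:9 were not. Without precipitate B the call of TUBA1B:20 was lost, and without precipitate C that of TUBA1B:9 was lost and TUBA1B:18 was called lower in addition. When the column letter was fitted as a replicate block, only the call of TUBA1B:1 was kept.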

How the data were processed

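The data are amplicon reads of cDNA from 3 Input and 3 anti-PUM2 immunoprecipitate libraries of the PUM2 pool. The other pools of the series hold no TUBA1B tile and were not used. The authors deposited raw read counts per tile and barcode, per the file headers; how reads were assigned is not given in the sources used here. Values were whole numbers. Columns carry letters (A, B, C) where the labels carry numbers, so they were placed in groups without a number and not paired; 0 columns were unmatched. Library pairs within a group differed by a chi-square of 71.6 to 666 per degree of freedom, so none was a copy of another.

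Counts were summed over the 22 barcodes of a tile, filtered with filterByExpr (1563 of 1599 tiles kept), scaled with TMM and tested in R 4.3.3 with edgeR 4.0.16 (quasi-likelihood F test, robust), fitted on the deposited counts of the whole pool. The script was also checked on simulated counts, which enter no value given here. The standard error is the absolute log2 fold change over the square root of F. Log2 CPM used a prior count of 2. Barcodes were compared where their reads in the 6 libraries summed to 30 or more.

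Tiles given library by library are those called, those with an absolute log2 fold change of at least 1 and the 2 nearest to 0; TUBA1B:2, TUBA1B:11, TUBA1B:12, TUBA1B:17 and TUBA1B:18 were added after their values were seen. The members, lists and comparisons were chosen with earlier results of these data known. Alternatives were RLE factors, library size only, 2 other filters, DESeq2 1.42.0, a block, 2 other barcode sums, each library left out, and other barcode minimums. All 23 source RNA symbols matched the RefSeq gene table of GRCh38.p14; the files give no positions or build, so no coordinates are given.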

Additional observations from a re-analysis of the deposited data

How the results depend on the processing

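Depth limits the size of the difference that can be stated for TUBA1B:6 and TUBA1B:7: with 1854 and 685 Input reads and 0 in the precipitate, only a bound can be given. Over 14 alternatives the TUBA1B tiles called lower stayed within 1.5 times of 4 in 9 and numbered 0 to 4 with 1 library left out; those called higher numbered 0 to 1. With library size as the only scaling the median over TUBA1B tiles was -0.42 and that over all tiles -0.29, a shift both shared, TUBA1B:20 was not called (0 higher), and the pool had 227 tiles lower. DESeq2 called 169 pool tiles lower and the same 5 TUBA1B tiles. Without each tile's top barcode 0 TUBA1B tiles were higher and the TUBA1B median was -0.08. Leaving out 1 library gave 12 to 146 pool tiles lower and a TUBA1B median of -0.22 to -0.05. TUBA1B:8 and TUBA1B:15 changed sign around 0: both were -0.23 by library size alone, and with 1 library left out they ran from -0.01 to 0.06 and from -0.10 to 0.11. A mean count of at least 50 ended the call of TUBA1B:7. The cause of these changes was not tested.

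Same-lettered Input and immunoprecipitate libraries did not deviate together (correlations of -0.04, 0.01 and -0.02 across tiles). Such values cannot show that the libraries were unpaired, and the main fit used no pairing. With the letter as a replicate block, 1 TUBA1B tile, TUBA1B:1, was called lower and 0 higher, and TUBA1B:15 was at 0.00. The edgeR adjusted p was then 0.0509 for TUBA1B:6, 0.121 for TUBA1B:7, 0.0753 for TUBA1B:9 and 0.0668 for TUBA1B:20.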
